A study of Mus musculus with 60 samples.

Results

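Cumulus cells (CCs) and mouse embryonic fibroblasts (MEFs) were the cell types whose nuclei were transferred into enucleated oocytes in this series, and their own transcriptomes were compared here across the autosomes. The members of the comparison are the 25848 genes of the RPKM table that GENCODE places on an autosome, out of 27238 genes in the table. The values were RPKM, a level that divides the reads on a gene by the length of its transcript and by the depth of the library. Of the 60 libraries in 20 groups, 3 were CC libraries and 3 were MEF libraries, and the others were single embryos produced in vivo or by nuclear transfer from either cell type. Both cell types were BDF1, the cross of C57BL/6 and DBA2 mice. CCs had been stripped with hyaluronidase from the oocytes of superovulated females and kept cold until use, while MEFs had been grown from mid-gestation fetuses at low passage in medium with serum and were arrested by serum starvation for nuclear transfer. The sources used here do not say how many cells entered each library, whether the sequenced MEFs had been starved, or the sex of the fetuses, so differences of lineage, of culture and of cell handling cannot be told apart in this design. The libraries of a group were described as biological replicates, without the number of females, fetuses or cultures behind them, and the p-values measure the spread between these libraries.

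Cumulus cells are the granulosa cells that surround the oocyte. After the ovulatory surge of gonadotropin, EGF-like factors make them secrete a hyaluronan matrix and turn towards progesterone synthesis, in which cholesterol is carried into mitochondria and cut to pregnenolone. MEFs are cultured mesenchymal cells that secrete fibrillar collagens and other matrix proteins, respond to platelet-derived growth factor and serum, and carry the fetal expression of imprinted loci such as H19 and Igf2. Nuclei of either cell type have to be reset by the oocyte in nuclear transfer.

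Some libraries stood apart from the others of their group. The number of reads on genes, recovered from the smallest steps of the values, ran from 31558140 to 37369128 in CCs and from 37074629 to 47830132 in MEFs, so that 3 reads on a transcript of 2000 nucleotides corresponded to 0.0314 to 0.0475 RPKM, for counting error only. MEF replicate 3 was the deepest library but listed the fewest autosomal genes above 0, at 10520 against 10884 to 12681 in the other 5, and only 204 of its genes had a single read, against 773 to 1140 in the others. CC replicate 1 differed from the other CC libraries in genes of mitosis and steroid synthesis, as given with those genes. The Y-linked gene Ddx3y stood at 22.9, 0.0311 and 24.7 RPKM in MEF replicates 1, 2 and 3 and at no more than 0.0183 in CCs, so the MEF libraries also differed from each other in Y-linked RNA. Across the autosomes, 13834 genes were above 0 in at least 1 CC library and 14765 in at least 1 MEF library, and 8959 and 9008 were above 0 in all 3.

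Among 11513 autosomal genes with a mean of at least 0.5 RPKM over the 6 libraries, 732 were called different by limma on log2(RPKM + 1), with a Benjamini-Hochberg adjusted p under 0.05 and a log2 difference of at least 1 in size, which is 6.36% of those tested. MEFs were higher for 466 genes (4.05%) and CCs for 266 (2.31%), and the values of the 3 libraries of each group did not overlap for any of the 732. Non-overlapping values were more common than calls, at 2838 of the genes tested (24.7%), with 1717 higher in MEFs (14.9%) and 1121 in CCs (9.74%). The median log2 difference, MEFs minus CCs, was 4.15 over the genes called in MEFs and -3.82 over those called in CCs, and 138 and 70 of them differed by at least 5. Over all autosomal genes tested the median was 0.19, and it was 0.05 after median-ratio scaling of the libraries, so differences of this order are within what the scaling sets. Without MEF replicate 1, 2 or 3 the count was 406, 371 or 466, and without a CC library it was 639 to 681, while a single fit that took the spread from all 20 groups called 3259. Every log2 difference below is MEFs minus CCs on the log2(RPKM + 1) scale with its standard error (SE), and each adjusted p is from limma.

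**Figure D1:**
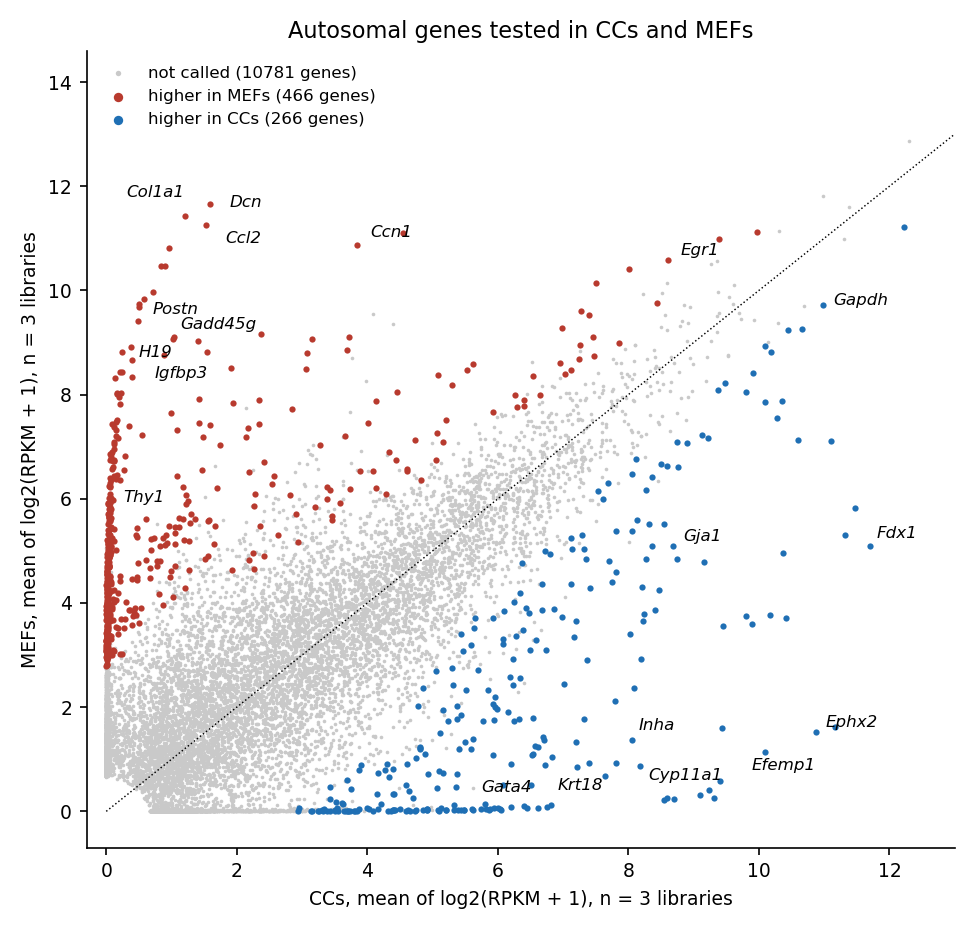
Mean log2(RPKM + 1) of the 3 CC libraries (horizontal axis) and the 3 MEF libraries (vertical axis) for the 11513 autosomal genes tested, with the 466 genes called higher in MEFs in red, the 266 called higher in CCs in blue and the others in grey. The dotted line marks equal values. Many called genes lie along the axes, where 1 group is near 0, and others lie between the axes and the dotted line.

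A sequence feature that the comparison did not use was looked at in the start regions of the called genes. The windows of RefSeq (GRCm38.p6) hold 250 bases before to 50 after each start, and matched 325 of the genes called in MEFs, with 417 windows, and 199 of those called in CCs, with 277 windows, since a gene may have several starts. Printed here are the 100 bases before the start of Ccn1 (chr3:145649986-145650085, minus strand) and Postn (chr3:54361007-54361106, plus strand), which were higher in MEFs, and of Cited4 (chr4:120666463-120666562, plus strand), which was higher in CCs. RefSeq has a second Postn start, and the window of chr3:54359167-54359266 before it holds no TATAAA. The printed windows are shown because each has the letters TATAAA, the core of a TATA box, in capitals 22 to 26 bases before the start.
Ccn1: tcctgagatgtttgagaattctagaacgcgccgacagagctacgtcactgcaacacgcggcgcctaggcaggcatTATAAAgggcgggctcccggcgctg
Postn: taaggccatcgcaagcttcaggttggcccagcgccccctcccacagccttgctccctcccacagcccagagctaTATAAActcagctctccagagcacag
Cited4: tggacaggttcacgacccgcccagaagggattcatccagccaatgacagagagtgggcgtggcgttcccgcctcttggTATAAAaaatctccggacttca

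TATAAA on the gene's strand was counted where all its letters lay 45 to 16 bases before the start. It was found in 3.6% of the windows of genes called in MEFs and 2.53% of those of genes called in CCs. The share was 1.15% of the 10780 windows of autosomal genes tested and 2.14% of all 32851 windows. Anywhere in the window and on either strand, TATAAA was in 13.4%, 10.5%, 6.86% and 13.6% of the same sets. The letters TGANTCA, a match to AP-1 sites, were in 6.95% and 8.3% of the windows of the genes called in MEFs and CCs against 4.89% of windows tested. AAGGTCA, a match to sites of the steroidogenic factor encoded by Nr5a1, was in 2.16% and 2.89% against 3.14%, and GATAA, a match to GATA sites, in 15.6% and 19.1% against 15.4%. The CArG box of serum response factor was in 2.64% and 1.08% against 1.28%. Windows of called genes held a median of 17 CpG dinucleotides for MEFs and 18 for CCs, against 21 for windows tested. These motifs were chosen after the values were seen, and the shares are descriptions with no test. A CArG box can contain TATAAA, and how often motifs overlapped was not counted.

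Genes that mark the granulosa lineage were mixed. Gata4 and Nr5a1 were present in CCs and near 0 in MEFs, whereas 13 members exceeded 1 RPKM in some MEF library and others were low or uneven between the CC libraries. The summed level of the list was 930 to 1383 RPKM in CCs and 88.3 to 201 in MEFs. Of 27 autosomal genes on the list 21 were tested, 4 were called higher in CCs and 1 in MEFs, and the median log2 difference of those tested was -1.30. Gata4, a transcription factor of gonadal somatic cells, was at 51.0, 77.9 and 69.9 RPKM in CC replicates 1, 2 and 3 and at 0.0304, 0.0345 and 0 in MEF replicates 1, 2 and 3 (log2 difference -6.02, SE 0.57, adjusted p = 0.000519). Nr5a1, the regulator of steroidogenic genes, was at 45.3, 45.3 and 33.5 in CCs and at 0.0336, 0.0254 and 0 in MEFs (-5.36, SE 0.60, adjusted p = 0.00123). Inha, the alpha subunit of inhibin, at chr1:75507077-75510366 (GRCm38), was at 191, 319 and 310 in CCs and at 0.402, 0.878 and 5.46 in MEFs (-6.70, SE 0.64, adjusted p = 0.000534). For each of these 3 genes the lowest CC value was more than 10 times the highest MEF value. Since the number of cells per library is not given, fewer cells of a type and less RNA per cell cannot be told apart. Gja1, the gap junction protein that couples cumulus cells, was at 751, 269 and 343 in CCs and at 26.7, 30.5 and 43.9 in MEFs (-3.60, SE 0.44, adjusted p = 0.00188). Kitl, the ligand of the oocyte receptor Kit, was the member called in the other direction, with 9.34, 18.2 and 18.9 RPKM in MEFs and no more than 0.0139 in CCs (3.96, SE 0.68, adjusted p = 0.00980, and 0.0578 without MEF replicate 2).

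Several defining granulosa genes did not separate the groups. Foxl2 was at 0.280, 0 and 1.38 RPKM in CCs and 0 in MEFs, and did not reach the level needed for testing. Fshr, the receptor of follicle-stimulating hormone, was at 0.0901, 0 and 12.8 in CCs (adjusted p = 0.567), and Amh, the anti-Mullerian hormone of growing follicles, at 0, 4.96 and 0.533 (adjusted p = 0.550). Both therefore rested on a single CC library. Lhcgr and Cyp19a1, the receptor of luteinizing hormone and the aromatase, were listed at 0 in all 6 libraries. Fst, which encodes the activin-binding follistatin and was named after its values were seen, was at 28.8, 87.0 and 176 in CCs and 1.92, 7.40 and 25.5 in MEFs, without overlap but short of the threshold (-3.16, SE 0.91, adjusted p = 0.0914).

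Steroid synthesis genes were mostly on the CC side. Of 16 members tested, 7 were called higher in CCs and 0 in MEFs, 15 had the higher mean in CCs, and the median log2 difference was -3.14. Without each library in turn 6 or 7 were called in CCs. Scarb1, the receptor that takes up cholesterol from lipoproteins and was named after its values were seen, was at 103, 597 and 443 RPKM in CCs and 12.1, 14.1 and 12.1 in MEFs (-4.46, adjusted p = 0.00382). Star, which carries cholesterol into mitochondria, was at 14.7, 147 and 114 in CCs and at 0.0681, 0.0774 and 0 in MEFs (-5.94, SE 0.90, adjusted p = 0.00533). Cyp11a1, the enzyme that cuts the cholesterol side chain, at chr9:58006411-58027023, was at 157, 662 and 557 in CCs and at 0.277, 0.348 and 0 in MEFs (-8.34, SE 0.63, adjusted p = 0.000140). CC replicate 1 was the lowest CC library for each of these.

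The electron carriers that serve Cyp11a1 followed. Fdx1, ferredoxin, was at 1978, 3955 and 4674 RPKM in CCs and at 16.3, 50.2 and 44.4 in MEFs (-6.60, SE 0.48, adjusted p = 0.000114), which placed it 5th by mean level among autosomal genes in CCs. Fdxr, the reductase that feeds ferredoxin, was at 171, 475 and 304 in CCs and at 13.4, 3.55 and 5.66 in MEFs (-5.27, SE 0.57, adjusted p = 0.00102). Soat1, which esterifies cholesterol for storage, was at 85.9, 170 and 142 in CCs and at 2.71, 5.02 and 6.28 in MEFs (-4.56, SE 0.50, adjusted p = 0.00111). Hsd3b1, which converts pregnenolone to progesterone, spread widely in CCs, at 6.79, 46.8 and 462, and was at 0.115, 0.218 and 0 in MEFs. Its call (-5.65, SE 1.30, adjusted p = 0.0371) was lost without 5 of the 6 libraries, at an adjusted p of up to 0.162. Akr1c18, which inactivates progesterone and was named after its values were seen, was at 723 and 128 in CC replicates 1 and 3 but 0.262 in replicate 2, and was not called (adjusted p = 0.205). Without CC replicate 2 it was called (-7.81, adjusted p = 0.00305), as it was in the fit over all 20 groups.

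Synthesis of cholesterol itself leaned the same way with few calls. All 25 members of the mevalonate and cholesterol list were tested, 21 had the higher mean in CCs, the median log2 difference was -1.10, and 2 were called in CCs. These were Fdps, a farnesyl diphosphate synthase, at 13.3, 20.9 and 16.7 RPKM in CCs and 0.0169, 0.0192 and 0.894 in MEFs (-3.82, SE 0.68, adjusted p = 0.0113), and Dhcr7, the last reductase of the pathway, at 51.6, 181 and 208 in CCs and 7.44, 14.7 and 16.8 in MEFs (-3.24, SE 0.61, adjusted p = 0.0158). Without MEF replicate 2 neither was called (adjusted p = 0.0557 and 0.0799), and Dhcr7 was not called without CC replicate 2 or 3 or MEF replicate 1 or 3 either (0.0577 to 0.0941).

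**Figure D2:**
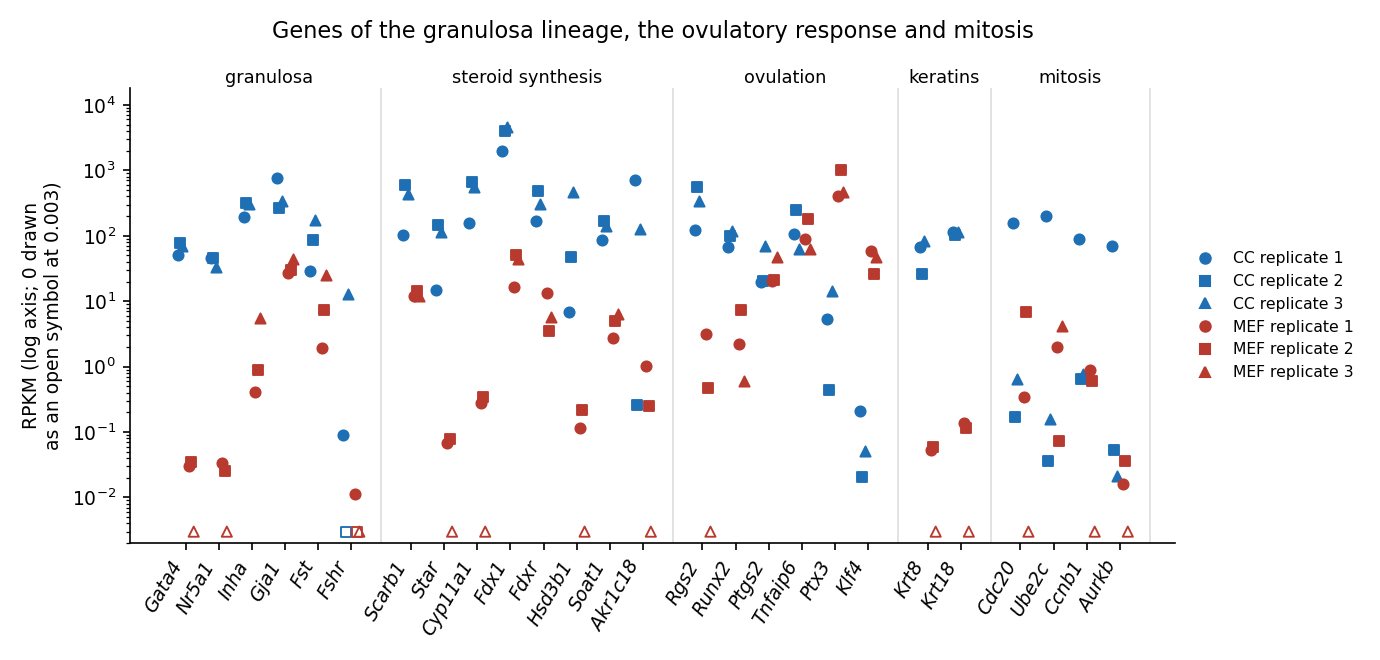
RPKM on a log axis of genes of the granulosa lineage, steroid synthesis, ovulation, keratins and mitosis in each of the 3 CC (blue) and 3 MEF (red) libraries, with a symbol for each replicate and values of 0 drawn open at the base. Granulosa, steroid and keratin genes stand high in CCs, except Fshr, which does so in CC replicate 3 alone, and Akr1c18, which is low in CC replicate 2. Ptgs2 and Tnfaip6 overlap, Ptx3 and Klf4 stand high in MEFs, and the mitosis genes stand high in CC replicate 1 alone.

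The ovulatory response divided between the cell types. Of 19 members tested, 3 were called higher in CCs and 4 in MEFs, with a median log2 difference of -0.13 that took the other sign with a pseudocount of 0.1 (0.03). Without MEF replicate 2 or 3 the count in MEFs was 2. On the CC side, Rgs2, a brake on G protein signaling, was at 122, 566 and 344 RPKM in CCs and at 3.14, 0.476 and 0 in MEFs (-7.30, SE 0.75, adjusted p = 0.000731). Runx2, a transcription factor induced around ovulation, was at 66.6, 98.2 and 120 in CCs and at 2.18, 7.21 and 0.610 in MEFs (-4.75, SE 0.67, adjusted p = 0.00399), and the third was Star. On the MEF side, Ptx3, a pentraxin that organizes the cumulus matrix, was at 5.38, 0.436 and 14.3 in CCs and at 406, 1003 and 467 in MEFs (6.79, SE 0.81, adjusted p = 0.00169). Klf4 was at 0.211, 0.0208 and 0.0520 in CCs and at 59.2, 25.8 and 47.5 in MEFs (5.29, SE 0.63, adjusted p = 0.00173). Pappa, a protease of IGF-binding proteins, was at 6.79, 14.2 and 9.69 in MEFs and at no more than 0.00574 in CCs (adjusted p = 0.0203, and 0.0799 or 0.0571 without MEF replicate 2 or 3). The remaining member called in MEFs was Ereg, the EGF-like ligand epiregulin, at 7.44, 5.76 and 7.68 in MEFs and no more than 0.0583 in CCs (2.96, SE 0.66, adjusted p = 0.0340). Ereg was named after its values were seen, and its call was lost without each of the 6 libraries in turn (adjusted p of 0.0649 to 0.0834).

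Classic genes of cumulus expansion did not separate the CCs from the MEFs. Has2, the hyaluronan synthase, was listed at 0 in all 3 CC libraries and in MEF replicates 1 and 2, and at 0.00493 RPKM in MEF replicate 3. Areg, the EGF-like ligand amphiregulin, was listed at 0 in all 6. Ptgs2, the prostaglandin synthase, was at 19.7, 20.1 and 69.4 in CCs and at 20.7, 21.2 and 47.5 in MEFs (-0.13, SE 0.62, adjusted p = 0.926). Tnfaip6, which links hyaluronan chains, was at 105, 248 and 63.7 in CCs and at 88.2, 178 and 62.1 in MEFs (-0.25, SE 0.57, adjusted p = 0.829). The ranges of both genes overlapped, and the sign of both small differences changed when single libraries were left out.

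Whether on a list or not, the called autosomal genes with the largest differences towards CCs were Gm29408, Ephx2, Mrap, Efemp1, Akr1cl, Sfrp4, Pdcd1, Tpd52l1, Cyp11a1, Cited4, Prss35 and Rgs2, in that order. Efemp1, Sfrp4, Cyp11a1 and Rgs2 are members of the lists. Ephx2, the soluble epoxide hydrolase, at chr14:66084374-66124500, was at 2146, 1686 and 1809 RPKM in CCs and at 1.31, 1.38 and 3.34 in MEFs (-9.35, SE 0.38, adjusted p = 5.82e-06), which is the smallest adjusted p in this direction. Mrap, an accessory protein of melanocortin receptors, was at 466, 711 and 777 in CCs and at 0.324, 0.313 and 0 in MEFs (-9.05, SE 0.45, adjusted p = 1.46e-05). Akr1cl, an aldo-keto reductase, was at 688, 605 and 744 in CCs and at 0.479, 1.25 and 0 in MEFs (-8.83, SE 0.46, adjusted p = 1.93e-05). Each of these was even across the CC libraries. Efemp1, the matrix protein fibulin-3, was at 1080, 1077 and 1120 in CCs and at 0.792, 3.22 and 0.441 in MEFs (-8.95, SE 0.48, adjusted p = 2.09e-05). Sfrp4, a secreted Wnt antagonist, was at 370, 528 and 1123 in CCs and at 0.540, 0.553 and 0 in MEFs (-8.82, SE 0.54, adjusted p = 4.15e-05). Pdcd1, which encodes the receptor PD-1 known from lymphocytes, was at 477, 872 and 392 in CCs and at 0.344, 0.405 and 0 in MEFs (-8.79, SE 0.49, adjusted p = 2.80e-05). The leukocyte marker Ptprc was at no more than 0.00518 in any of the 6 libraries. Gm29408 was uneven, at 240, 16090 and 3076 in CCs, and its call (-9.55, SE 1.37, adjusted p = 0.00416) was lost without MEF replicate 3 (adjusted p = 0.0531).

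By level rather than by difference, Spp1, the secreted phosphoprotein osteopontin, led the CCs at 42440, 9071 and 14090 RPKM against 383, 407 and 2137 in MEFs (-4.66, SE 0.73, adjusted p = 0.00630, and 0.0693 or 0.0663 without MEF replicate 1 or 2). Sdc1, the surface proteoglycan syndecan-1, was at 2047, 4497 and 2485 in CCs and at 36.7, 62.5 and 73.5 in MEFs (-5.66, adjusted p = 6.13e-05). Spp1 and Sdc1 were named after their values were seen. Krt8 and Krt18, the simple-epithelial keratins, were the tested members of the epithelial list, and both were called. Krt18 was at 116, 104 and 114 in CCs and at 0.136, 0.116 and 0 in MEFs (-6.69, SE 0.52, adjusted p = 0.000158), and Krt8 at 66.6, 26.0 and 82.0 against 0.0526, 0.0598 and 0 (-5.68, SE 0.67, adjusted p = 0.00155). The other 13 of the 15 epithelial genes did not reach the level for testing, and Epcam, a defining epithelial gene, was listed at 0 in all 6.

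The MEF side was led by collagens. Of 42 collagen chains 23 were tested, 11 were called higher in MEFs and 0 in CCs, the median log2 difference was 3.12, and 10 or 11 were called in MEFs without each library in turn. Col1a1, a chain of type I collagen, at chr11:94936224-94953042, was at 1.51, 1.17 and 1.26 RPKM in CCs and at 2140, 2980 and 3335 in MEFs (10.23, SE 0.34, adjusted p = 3.44e-06). Col3a1, type III collagen, at chr1:45311538-45349706, was at 1.13, 0.873 and 0.849 in CCs and at 1558, 1971 and 1931 in MEFs (9.86, SE 0.35, adjusted p = 3.69e-06). Col1a2 was at 0.467, 0.372 and 0.428 in CCs and at 620, 902 and 988 in MEFs (9.17, SE 0.41, adjusted p = 9.78e-06). Col5a2, a minor fibrillar chain, and Col6a2, a chain of beaded filaments, differed by 7.80 and 6.98 (SE 0.47 and 0.53). The summed level of all 42 chains was 92.6 to 351 RPKM in CCs and 5662 to 8294 in MEFs.

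Other matrix genes followed with exceptions. On the list of glycoproteins, proteoglycans and cross-linking enzymes, 20 of 55 members tested were called higher in MEFs and 3 in CCs, and the median log2 difference was 2.17. Dcn, the proteoglycan decorin, at chr10:97479609-97518143, was at 2.58, 1.78 and 1.76 RPKM in CCs and at 3343, 2982 and 3371 in MEFs (10.06, SE 0.31, adjusted p = 3.44e-06). Postn, periostin, whose start region is printed above, was at 0.464, 0.422 and 0.364 in CCs and at 763, 582 and 1400 in MEFs (9.24, SE 0.46, adjusted p = 1.46e-05). Fn1, fibronectin, was at 11.8, 1.79 and 1.54 in CCs and at 114, 203 and 184 in MEFs (5.18, SE 0.68, adjusted p = 0.00287). Lox, which cross-links collagen, was high in both cell types, at 240, 138 and 106 in CCs and at 546, 421 and 520 in MEFs (1.69, SE 0.34, adjusted p = 0.0199). Its call was lost with median-ratio scaling (adjusted p = 0.0716) and without 5 of the libraries (adjusted p of up to 0.112). Among proteases and their inhibitors, 7 of 21 members tested were called in MEFs and 1 in CCs. Timp2, an inhibitor of matrix metalloproteinases, was at 131, 107 and 119 in MEFs and no more than 0.0687 in CCs (6.81, SE 0.52, adjusted p = 0.000140), whereas Serpine2, an inhibitor of serine proteases, was at 692, 751 and 661 in CCs and 20.4, 20.7 and 2.55 in MEFs (-5.89, SE 0.67, adjusted p = 0.00129).

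Mesenchymal receptors and transcription factors were present in MEFs, as their label says, and near 0 in CCs. Of 28 members of the fibroblast list tested, 15 were called higher in MEFs and 1 in CCs, with a median log2 difference of 3.73, and without each library in turn 12 to 15 were called in MEFs. Pdgfra and Pdgfrb, the receptors of platelet-derived growth factor, were at 17.8, 25.7 and 20.9 RPKM and at 29.5, 49.4 and 41.4 in MEFs, against no more than 0.0160 and 0.0537 in CCs (4.46 and 5.29, adjusted p = 0.00416 and 0.00144). Thy1, a surface glycoprotein of fibroblasts, was at 56.5, 49.6 and 77.0 in MEFs and no more than 0.0548 in CCs (5.88, SE 0.58, adjusted p = 0.000608). Prrx1, a homeobox gene of limb and trunk mesenchyme, was at 47.5, 18.2 and 28.0 in MEFs and no more than 0.0242 in CCs (4.88, SE 0.67, adjusted p = 0.00330). Twist1 was at 6.29, 29.2 and 14.0 in MEFs (3.87, adjusted p = 0.0195, and 0.0830 or 0.0738 without MEF replicate 2 or 3). Cdh11, the mesenchymal cadherin, was at 176, 142 and 237 in MEFs and no more than 0.121 in CCs (7.35, SE 0.51, adjusted p = 8.62e-05). Cdh2, N-cadherin, went the other way, at 16.6, 22.1 and 18.9 in CCs and 0.456, 1.68 and 0.0259 in MEFs (-3.66, adjusted p = 0.0140, and 0.0578 without MEF replicate 1). Vim, the intermediate filament often used as a mesenchymal marker, was abundant in both, at 132, 67.9 and 157 in CCs and 367, 261 and 244 in MEFs (1.34, adjusted p = 0.0816). Cdh2 and Vim were named after their values were seen. Of the Hox genes, 15 of 34 were tested, all 15 had the higher mean in MEFs, the median log2 difference was 1.83, and limma called 0, with 5 at an unadjusted p under 0.05, against 18.5% of all autosomal genes tested. The fit over all 20 groups called 11 of the 15 in MEFs, where it called 2065 of all 11513 autosomal genes tested in that direction. Their summed level was 0.0988, 9.50 and 17.6 RPKM in CCs and 104, 145 and 32.8 in MEFs.

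**Figure D3:**
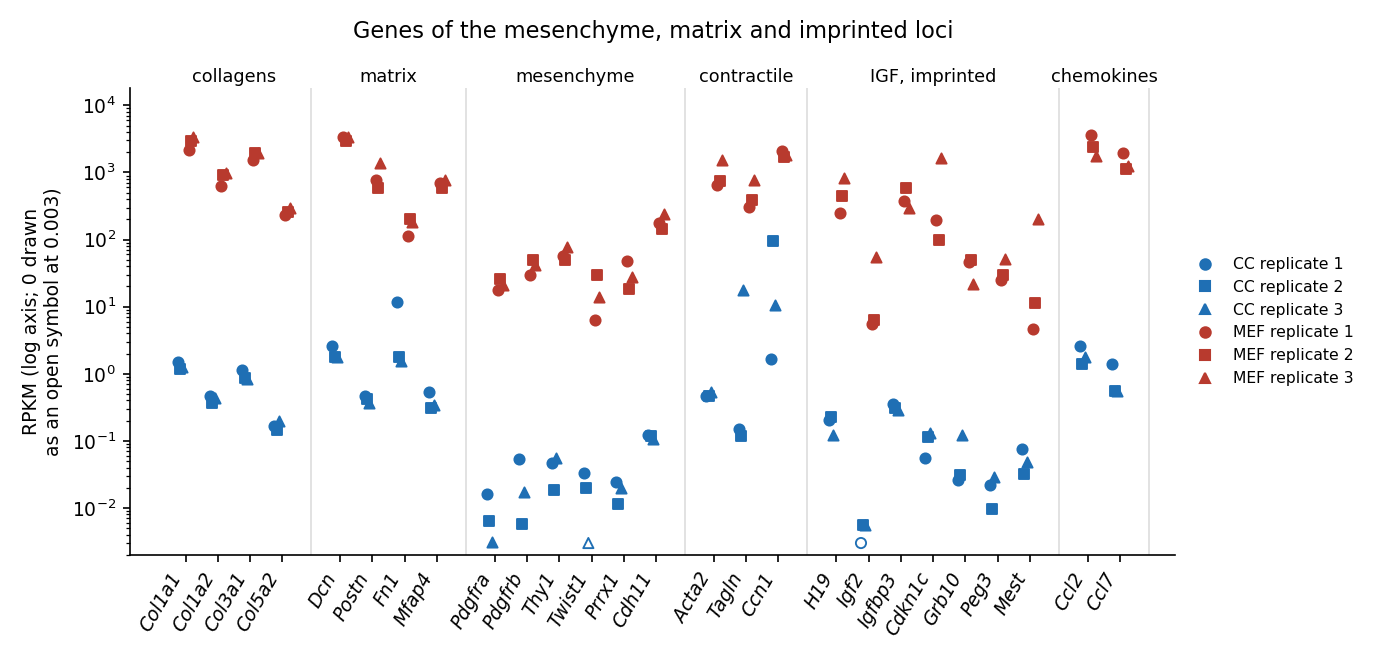
RPKM on a log axis of genes of collagens, matrix, mesenchyme, contractile proteins, imprinted loci and chemokines in each of the 3 CC (blue) and 3 MEF (red) libraries, with values of 0 drawn open at the base. MEF values lie above all CC values for every gene shown, while Cdkn1c, Igf2 and Mest stand highest in MEF replicate 3.

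Contractile genes and targets of serum response factor were mostly on the MEF side. Of 26 members tested 9 were called in MEFs and 0 in CCs, with a median log2 difference of 1.96, but without MEF replicate 1 only 3 were. Acta2, smooth muscle actin, was at 0.466, 0.462 and 0.534 RPKM in CCs and at 656, 743 and 1528 in MEFs (9.25, SE 0.46, adjusted p = 1.46e-05). Tagln, transgelin, was at 0.152, 0.12 and 18 in CCs and at 304, 382 and 771 in MEFs (7.27, SE 1.04, adjusted p = 0.00411, and 0.0548 without MEF replicate 3). Ccn1, a matricellular YAP and SRF target whose start region is printed above, was at 1.64, 95.1 and 10.7 in CCs and at 2092, 1711 and 1852 in MEFs (7.03, SE 1.06, adjusted p = 0.00535). CC replicate 2 was high for Ccn1, and without 1 of MEF replicates 1, 2 and 3 its adjusted p was 0.0652, 0.0573 and 0.0619.

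The largest differences towards MEFs outside the matrix included those of several secreted factors. The 12 leading genes were Col1a1, Dcn, Col3a1, Ccl2, Ccl7, Serpinf1, Cxcl5, Acta2, Postn, Col1a2, Mfap4 and H19. Ccl2 and Ccl7, chemokines that attract monocytes, are neighbours on chromosome 11 (chr11:82035571-82037453 and chr11:82045712-82047525). Ccl2 was at 2.59, 1.42 and 1.75 RPKM in CCs and at 3565, 2357 and 1754 in MEFs (9.73, SE 0.39, adjusted p = 4.97e-06), and Ccl7 at 1.40, 0.553 and 0.554 against 1970, 1136 and 1256 (9.62, SE 0.41, adjusted p = 7.58e-06). Serpinf1, pigment epithelium-derived factor, was at 1.02, 0.818 and 0.752 in CCs and at 1342, 1357 and 1558 in MEFs (9.57, SE 0.36, adjusted p = 4.28e-06). The neutrophil chemokine Cxcl5 was at 986, 588 and 1760 in MEFs and no more than 0.862 in CCs (9.26, SE 0.49, adjusted p = 1.97e-05).

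Imprinted genes and the IGF system also leaned towards MEFs, with some genes counted on several lists. Of 29 imprinted genes tested, 5 were called in MEFs and 0 in CCs and the median log2 difference was 1.80, and 23 had the higher mean in MEFs. The 5 were H19, Cdkn1c, Peg3, Grb10 and Dcn, the last of which is also on the matrix list above. H19, the maternally expressed RNA at chr7:142575529-142578143, was at 0.203, 0.227 and 0.12 RPKM in CCs and at 247, 443 and 823 in MEFs (8.57, SE 0.55, adjusted p = 5.26e-05). Its neighbour Igf2, at chr7:142650766-142666816, was at 0, 0.00553 and 0.00554 in CCs and at 5.56, 6.31 and 54.4 in MEFs, short of the threshold (3.79, SE 0.95, adjusted p = 0.0534) although the groups did not overlap. Igf2 was called with a pseudocount of 0.1 (6.92, adjusted p = 0.0203), among genes with a mean of at least 2 RPKM (adjusted p = 0.0473) and in the fit over all 20 groups. Cdkn1c, the cell cycle inhibitor p57 farther along the same chromosome, was at no more than 0.131 in CCs and at 198, 99.2 and 1618 in MEFs (8.18, SE 0.94, adjusted p = 0.00143). MEF replicate 3 was the highest for all 3 genes, and for the paternally expressed Mest, which was named after its values were seen and stood at 4.69, 11.3 and 199 in MEFs (adjusted p = 0.0752). Peg3 and Grb10 were steadier, at 25.2, 30.0 and 51.3 and at 46.6, 49.9 and 21.8 in MEFs, against no more than 0.0286 and 0.122 in CCs (5.10 and 5.17, adjusted p = 0.00219 and 0.00220).

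In the IGF system 7 of 18 members were called in MEFs and 0 in CCs, with a median log2 difference of 3.11, and 3 without MEF replicate 2. H19 and Pappa, given above, are among the 7. Igfbp3 and Igfbp5, binding proteins of insulin-like growth factors, were at 380, 591 and 292 and at 52.3, 42.5 and 90.5 RPKM in MEFs, against no more than 0.350 and 0.0401 in CCs (8.26 and 5.86, SE 0.48 and 0.61, adjusted p = 3.10e-05 and 0.000794).

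Some signaling receptors were divided within families, though most members of these lists were not called. Among 32 members of the TGF-beta and BMP list tested 3 were called in MEFs and 2 in CCs, and among 33 of the Wnt list 5 and 2. The shares of all autosomal genes tested were 4.05% in MEFs and 2.31% in CCs. The members not called were 27 and 26, and the median log2 differences were 0.71 and 0.17. Without CC replicate 2 the TGF-beta count in CCs was 4. The Wnt count in MEFs was 3 without CC replicate 1 or MEF replicate 2 or 3, and the Wnt count in CCs was 1 without any library except CC replicate 1. Tgfbr2, a type II receptor of TGF-beta, was at 0.0839, 0.0463 and 0.0397 RPKM in CCs and at 89.3, 101 and 150 in MEFs (6.72, SE 0.54, adjusted p = 0.000193). Its type I partner Tgfbr1 was the reverse, at 38.9, 91.1 and 68.3 in CCs and at 2.90, 3.46 and 2.44 in MEFs (-4.02, SE 0.54, adjusted p = 0.00304). Lgr5 and Rspo3, a receptor and a ligand that raise Wnt signaling, were at 59.2, 180 and 79.1 and at 31.3, 38.8 and 19 in MEFs, against no more than 0.0740 and 0.0396 in CCs (6.49 and 4.83, adjusted p = 0.000534 and 0.00304), while the antagonist Sfrp4 was on the CC side, above.

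Immediate early genes, which handling, digestion and serum can induce, were mostly on the MEF side, and some, such as Fos and Egr1, were high in both cell types. Of 34 members tested 8 were called in MEFs and 1 in CCs, 31 had the higher mean in MEFs, and the median log2 difference was 1.57. Without MEF replicate 1 the count in MEFs was 3. Egr1 was at 396, 322 and 456 RPKM in CCs and at 1950, 1445 and 1275 in MEFs (1.98, SE 0.23, adjusted p = 0.00162). Its call was lost with limma fitted without a trend of spread with level (adjusted p = 0.0751), which called 4 members in MEFs and 0 in CCs. Fos was at 984, 794 and 363 in CCs and at 1571, 2086 and 1039 in MEFs (1.19, SE 0.39, adjusted p = 0.140). Dusp1, a phosphatase of MAP kinases, was at 19.5, 13.7 and 17 in CCs and 237, 201 and 270 in MEFs (3.75, SE 0.35, adjusted p = 0.000503), and Gadd45g, a growth arrest gene, at 0.274, 0.297 and 4.13 against 456, 529 and 630 (8.03, SE 0.61, adjusted p = 0.000140). Myc was at 91.1, 17.5 and 57.1 in CCs and 491, 489 and 184 in MEFs (2.94, SE 0.63, adjusted p = 0.0284), a call lost without CC replicate 3 or any 1 MEF library (adjusted p of 0.0636 to 0.167). Ier3 was the member called in CCs (-1.39, SE 0.33, adjusted p = 0.0436; named after its values were seen), and its call was lost without each of the 6 libraries in turn (adjusted p of 0.0611 to 0.145).

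Glycolysis leaned towards CCs. Of 29 members tested 7 were called in CCs and 0 in MEFs, 21 had the higher mean in CCs, and the median log2 difference was -1.01, against 0.19 over all autosomal genes. Tpi1, triosephosphate isomerase, was at 409, 465 and 426 RPKM in CCs and at 99.5, 73.3 and 126 in MEFs (-2.14, SE 0.29, adjusted p = 0.00313). Pfkp, the platelet-type phosphofructokinase, was at 86.6, 69.0 and 35.8 in CCs and at 3.92, 4.52 and 1.67 in MEFs (-3.87, SE 0.58, adjusted p = 0.00527). Gapdh, named after its values were seen, was at 2036, 2063 and 1984 in CCs and at 849, 716 and 990 in MEFs (-1.26, SE 0.18, adjusted p = 0.00363). The values of these genes did not overlap, as for every gene called. The differences of Tpi1 and Gapdh were small beside those of lineage genes such as Gata4 (-6.02). Gapdh was not called when the spread was taken from all 20 groups (adjusted p = 0.210). Without MEF replicate 1 only 3 members were called, and with limma fitted without a trend of spread with level only 1 was. In that fit the adjusted p was 0.250 for Gapdh and 0.0572 for Tpi1. Of 71 nuclear genes of the respiratory chain limma called 0, with 4 at an unadjusted p under 0.05 (18.5% over all autosomal genes) and a median log2 difference of -0.05. Of 74 ribosomal protein genes 2 were called in MEFs although 73 had the higher mean there (median 0.77, and 0.55 after median-ratio scaling). Rps2 was at 629, 677 and 692 in CCs and at 2535, 2111 and 1532 in MEFs (1.60, SE 0.21, adjusted p = 0.00304). Its adjusted p was 0.149 in limma without the trend, which called 0 ribosomal protein genes in MEFs.

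**Figure D4:**
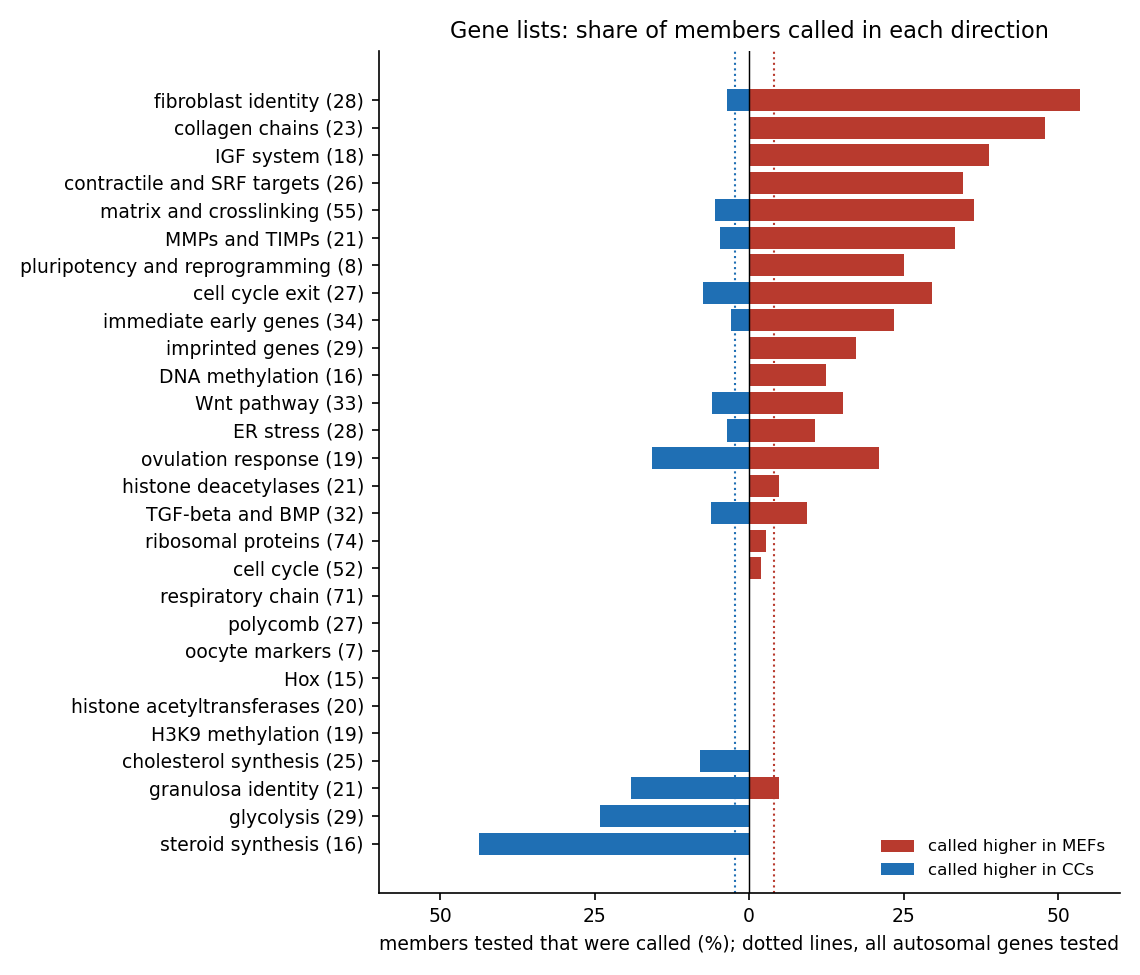
Share of the tested members of each gene list (number tested in brackets) called higher in MEFs (red, to the right) and in CCs (blue, to the left), for lists with at least 7 members tested. The dotted lines mark the share of all autosomal genes tested, 4.05% for MEFs and 2.31% for CCs. The fibroblast and collagen lists reach farthest to the right, steroid synthesis farthest to the left, and 6 lists have no member called.

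Cell cycle genes were uneven between the CC libraries. Of 52 tested, 32 had their highest value of the 6 libraries in CC replicate 1, and the summed level of the list was 1453 RPKM there against 264 and 245 in CC replicates 2 and 3 and 287 to 522 in MEFs. Of these genes, 16 were at 10 RPKM or more in CC replicate 1 and at least 10 times the level in both other CC libraries, and 13 of the 16 were at 0 in MEF replicate 3. Ube2c, a ubiquitin-conjugating enzyme of mitotic exit, was at 198, 0.0365 and 0.158 in CCs and at 1.97, 0.0726 and 4.14 in MEFs. Cdc20, the activator of the anaphase-promoting complex, was at 156, 0.169 and 0.645 in CCs and 0.343, 6.83 and 0 in MEFs. Ccnb1, cyclin B1, was at 89.1, 0.645 and 0.781 in CCs and at 0.883, 0.601 and 0 in MEFs. The 3 were picked with their values in view, and none was called. Top2a was at 25.4, 0.0175 and 0.0316 in CCs and at 5.44, 0.0329 and 0 in MEFs (adjusted p = 0.808), and Mki67 did not reach the level for testing, at no more than 1.74 in any library.

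Cyclin D genes and inhibitors of the cycle differed more between the groups. Ccnd2 was the cycle gene called, at 0.0427, 2.46 and 2.88 RPKM in CCs and at 29.4, 40.8 and 37.7 in MEFs (3.93, SE 0.69, adjusted p = 0.0107). Its call was lost without MEF replicate 1, 2 or 3, at an adjusted p of 0.0619, 0.0799 and 0.0680. Ccnd1 was at 9.73, 20.4 and 0.0491 in MEFs and no more than 0.190 in CCs (2.53, SE 1.11, adjusted p = 0.275, and 0.0474 without MEF replicate 3). On the list of cycle exit 8 of 27 members tested were called in MEFs and 2 in CCs. Dcn, Cdkn1c and Pdgfra, given above with other lists, are among the 8. Gas6, a growth arrest-specific ligand, was at 145, 116 and 68.2 in MEFs and no more than 0.0976 in CCs (6.60, SE 0.57, adjusted p = 0.000273). The CC members were Rb1, at 8.38, 11.4 and 7.86 in CCs and 0.0552, 0.0269 and 0 in MEFs (-3.30, adjusted p = 0.0215), and Cdkn1b, the inhibitor p27, at 34, 35 and 34.9 against 11.5, 0.705 and 1.69 (-3.21, adjusted p = 0.0484). Without MEF replicate 2 neither was called (0.0775 and 0.168). Rb1 was also lost without CC replicate 2 or MEF replicate 1 or 3, and Cdkn1b without any library except MEF replicate 1, at an adjusted p of up to 0.173. Cdkn1a overlapped, at 38.0, 11.5 and 52.0 in CCs and 46.1, 22.1 and 4.25 in MEFs, and Cdkn2a was listed at 0 in all 6.

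Calls among chromatin regulators numbered 0 to 2 in each list, where the share of all autosomal genes called, 6.36%, amounts to 1 or 2 genes. Limma called 0 of 19 genes of H3K9 methylation, 0 of 27 Polycomb genes and 0 of 20 histone acetyltransferase genes, with 3, 4 and 2 at an unadjusted p under 0.05, which is near or below the 18.5% of all autosomal genes. It called 1 of 21 deacetylases, Hdac7 in MEFs, which was lost without each library except MEF replicate 3 (adjusted p of up to 0.0908), and 2 of 16 genes of DNA methylation, Zfp57 and Gadd45b, both in MEFs. The fit over all 20 groups called 2 H3K9 genes in each direction, 3 Polycomb genes in each, and 1 acetyltransferase gene in MEFs and 3 in CCs. That fit called 3259 of all 11513 autosomal genes tested, 2065 in MEFs and 1194 in CCs. Over the 5 lists the median log2 differences lay between -0.41 and 0.27. Zfp57, a zinc finger protein that protects imprints, was at 0.226, 0.242 and 0.193 RPKM in CCs and at 11.3, 9.31 and 16.1 in MEFs (3.41, SE 0.67, adjusted p = 0.0185), a call lost without MEF replicate 1, 2 or 3 (0.0634, 0.0631 and 0.0600). Gadd45b, a growth arrest gene linked to demethylation, was at 76.5, 29.9 and 24.5 in CCs and at 354, 293 and 230 in MEFs (2.87, SE 0.46, adjusted p = 0.00728, and 0.0661 or 0.0625 without MEF replicate 1 or 2). Dnmt1, the maintenance methyltransferase, varied more within groups than between them, at 23.2, 14.2 and 0.136 in CCs and 4.05, 19.1 and 0 in MEFs, and Setdb1, an H3K9 methyltransferase, was at 30.4, 13.3 and 6.28 against 4.58, 12.7 and 0.0122. Hdac1 was at 38.9, 23.5 and 26.5 in CCs and at 17.7, 17.4 and 32.1 in MEFs. These 3 were named after their values were seen, and their adjusted p-values were 0.402 to 0.813.

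Such on and off values were common. Of the 7663 tested genes at 5 RPKM or more in some CC library, 2596 (33.9%) were under 0.1 in another CC library, and of 7813 in MEFs 1577 (20.2%) were. Nap1l5, an imprinted gene, was at 0.218, 137 and 484 in CCs and at 0.116, 67.9 and 0 in MEFs, with an adjusted p of 0.508, and was named after its values were seen. A gene that was not called is not shown to be equal in the cell types. The median standard error of the log2 difference was 0.80 over all autosomal genes tested.

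Markers of other cell types differed by type. The blood and immune markers summed to 0.0733 to 13.9 RPKM in CCs and 5.58 to 23.9 in MEFs, the endothelial markers to 0.627 to 21.1 and 7.16 to 13.3, and the muscle and neural markers to 0.0425 to 21 and 2.40 to 22.8. Of 18, 12 and 18 such genes 8, 4 and 12 were at 0 in all 6 libraries, and the endothelial gene Pecam1 was at no more than 0.00866. Flt1, a receptor of vascular endothelial growth factor, was the 1 member of these lists called (3.36, adjusted p = 0.0214, and 0.0634 or 0.0812 without MEF replicate 1 or 2), at 8.76, 13.1 and 7.05 in MEFs. The theca and stroma markers reached 147 RPKM in CC replicate 3 against 4.75 and 14.0 in the other CC libraries, most of it from Mgp, matrix Gla protein, at 0.113, 14.0 and 143 in CCs. Oocyte genes summed to 34.4 to 76.4 in CCs, 35.9 and 27.3 in MEF replicates 1 and 2, and 0 in MEF replicate 3. Gdf9, the oocyte growth factor, was at 2.24, 1.76 and 1.82 in CCs, at 1.69 and 1.62 in MEF replicates 1 and 2 and at 0 in replicate 3. Tle6, of the subcortical complex of the oocyte, was at 25.3, 53.9 and 11.9 in CCs and at 13.7, 6.76 and 0 in MEFs, and Bcl2l10, an oocyte survival gene, at 9.72, 7.49 and 7.71 against 8.32, 6.52 and 0. Mgp, Tle6 and Bcl2l10 were named after their values were seen. The defining oocyte gene Zp3 was at no more than 0.168 in any of the 6 libraries. The medians of Gdf9 and Zp3 in the 54 embryo libraries were 5.17 and 13.3. The part of these other cells in the differences between the groups was not tested.

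The genes that led each side had small values in the other cell type, which their choice by size of difference favours. For the 12 genes that led the MEF side, the CC libraries held 0.0238% to 0.101% of the mean MEF level, with medians of 0.0670%, 0.0467% and 0.0486% in replicates 1, 2 and 3. For the 12 that led the CC side, the medians were 0.0668% and 0.0726% of the mean CC level in MEF replicates 1 and 2, and 0% in replicate 3, in which 9 of the 12 were at 0. The highest were 0.914%, 0.295% and 1.75%. A wider set took all called genes with a mean of at least 100 RPKM in the higher group. For the 110 such genes called in CCs the medians were 5.61%, 6.42% and 8.79% in MEF replicates 1, 2 and 3. For the 115 called in MEFs they were 0.102%, 0.0744% and 1.0% in CC replicates 1, 2 and 3. In the 54 embryo libraries the median of Col1a1, Col3a1 and Dcn was 0, and Col1a1 was at 0 in 48. Where this signal came from was not tested. The folds of the genes that led each side were taken against these low values.

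**Figure D5:**
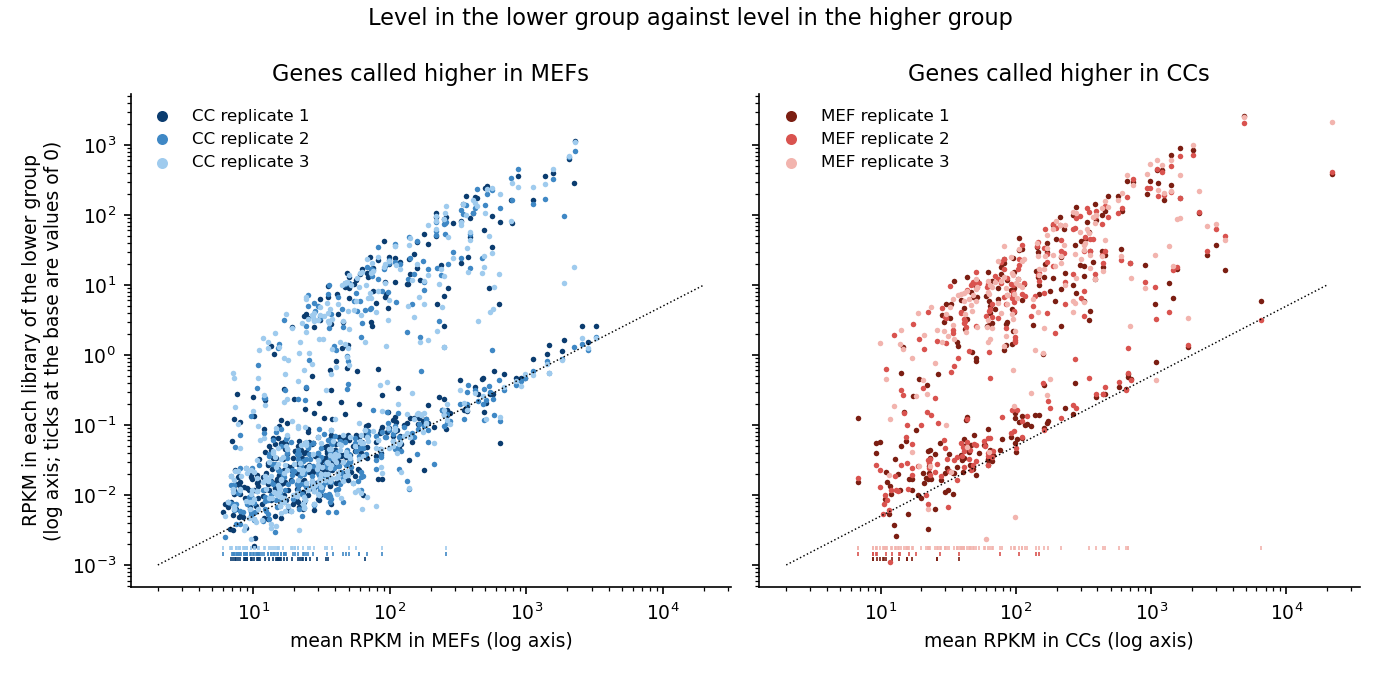
RPKM in each library of the lower group (vertical, log axis) against the mean of the higher group (horizontal, log axis), for genes called higher in MEFs (left) and in CCs (right), with values of 0 as ticks at the base. The dotted line is 0.05% of the higher group's mean, along which a band of genes lies in all libraries except MEF replicate 3.

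Called genes differed in how often they were silent in embryos. Of the 466 genes called in MEFs, 98 (21%) had a mean under 0.5 RPKM in all 18 embryo groups, against 18 of the 266 called in CCs (6.77%) and 1148 of all 11513 tested (9.97%). These are shares of lists with no test. Protein-coding genes made up 448 of the genes called in MEFs and 256 of those called in CCs, and the median exon length was 3648 and 3777 nucleotides against 4190 for all tested.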

How the data were processed

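The deposited table held RPKM values per gene, which the authors made from single-embryo RNA-seq libraries (poly(A)-tailed cDNA amplified by PCR, paired-end reads, redundant reads removed). The study's methods name TopHat, Bowtie2 and HTSeq, whereas the submitters' processing notes name Bowtie 0.12.2 and the build mm8, so the build behind the values is not certain, and gene positions are those of GENCODE M21 (GRCm38). Strand was not used in the values as far as the sources say. PCR copies are not independent molecules, so the depths and floors cover counting error only.

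Values were tested as log2(RPKM + 1) with limma (3.58.1, R 4.3.3, lmFit, then eBayes allowing for a trend) on the 3 CC and 3 MEF libraries, over all genes with a mean of at least 0.5 RPKM, with Benjamini-Hochberg adjustment over all of them. A fold on this scale understates the change of low genes. An exact permutation test of 3 against 3 cannot go below p = 0.1 and was not used. Tables were made with Python 3.11.15, pandas 2.3.3 and numpy 2.4.6. The procedure was tested on simulated data.

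Members and gene lists were chosen with earlier results of these data known. Named genes were up to 6 called members of each list by size, genes that define a list by their role, and in each direction the 12 largest differences without overlap and the 3 smallest adjusted p-values, and any other gene is said to have been chosen after its values were seen. Alternatives were a pseudocount of 0.1, no filter, a mean of at least 2 RPKM, median-ratio scaling, no trend, other fold thresholds, 1 fit over all 20 groups, a replicate block and leaving out each library. The deposited data of the embryos were used only where stated.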

Additional observations from a re-analysis of the deposited data

How the results depend on the processing

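Without the filter on low values 402 autosomal genes were called (252 higher in MEFs, 150 in CCs), of which 392 were also among the 732, and with 1 fit over all 20 groups 3259 were (2065 and 1194), which held 698 of the 732. In the former more genes entered both the trend and the adjustment, and in the latter most of the libraries behind the spread were embryos. What moved the counts was not tested. The share of calls that were higher in MEFs was 63.7%, against 58.7% after median-ratio scaling and 67.4% without the trend. Without each library in turn the calls ranged from 371 to 681, with 221 to 431 higher in MEFs, 150 to 261 higher in CCs and a MEF share of 59.6% to 67.3%. Of 124 named genes called, 83 were called without each of the 6 libraries and 79 under every alternative, and none of the 124 changed sign. Signs changed only for genes that were not called. Without each library in turn the log2 difference ran from -2.87 to 0.66 for Cdc20, from -1.57 to 0.88 for Top2a and from -2.58 to 1.21 for Ube2c, positive without CC replicate 1 in each. It ran from -2.04 to 0.43 for Dnmt1, from -1.42 to 0.16 for Cdkn1a, from -0.69 to 0.28 for Tnfaip6, from -0.51 to 0.45 for Ptgs2, and from -0.75 to 0.062 for Kdm4b, an H3K9 demethylase. The cause of these changes was not tested. The replicate numbers did not pair the samples, since deviations of same-numbered libraries from their group means correlated at 0.0096, 0.027 and 0.00065, and with the replicate block 669 genes were called (421 and 248, 62.9% in MEFs), 603 of them among the 732. Only Fst (adjusted p = 0.00897), Mest (0.0420) and Fos (0.0123) among the named genes gained a call with the block in limma, and 8 lost theirs.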

Other observations

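Of 28 genes of the unfolded protein response tested, limma called 3 higher in MEFs and 1 in CCs, against 4.05% and 2.31% of all autosomal genes, with a median log2 difference (MEFs minus CCs) of -0.15. Trib3, a pseudokinase induced by stress, was higher in MEFs by 6.24 (SE 0.79, adjusted p = 0.00233), and Chac1, which degrades glutathione, by 4.18. Pdia4, a protein disulfide isomerase, was the member called in CCs (-1.66), and its call was lost without 5 of the 6 libraries, leaving 0 in CCs. Of 8 genes of pluripotency and reprogramming tested, Klf4 and Myc were the 2 called, both in MEFs.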
